A study of Mus musculus with 20 samples.

Results

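Same-strand chains of unspliced loci were described in a mouse long intergenic noncoding RNA (lincRNA) catalogue, in mm9 coordinates. A chain was a series of 3 or more single-exon loci on 1 strand of chromosomes 1 to 19 in which each gap between neighbours was at most 5000 bases. A locus counted as single-exon when each of its transcripts had 1 exon. The rule found 75 chains with 240 loci, which is 1.64% of the 14677 single-exon loci on these chromosomes (exact 95% binomial interval 1.44 to 1.85%, for counting error only) and part of a catalogue of 29286 loci. Another 1562 single-exon loci formed 781 pairs and the other 12875, 87.7%, had no same-strand single-exon neighbour within the limit and are called loci alone below. The loci carry NONCODE identifiers.

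A lincRNA is transcribed by RNA polymerase II like an mRNA, and most well-studied members are spliced, capped and polyadenylated. Single-exon noncoding RNAs are annotated between genes, inside the introns of protein-coding genes and at pseudogenes, which are copies of genes or of their mRNAs. Some lincRNAs are host transcripts, from which a microRNA or a snoRNA is cut.

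The catalogue accompanied a study that used iROND, a pulldown of RNA with newly replicated DNA, in wild-type embryonic stem cells of the mouse and in the fibroblast line NIH3T3. DNA was labelled for 10 min with the thymidine analogue EdU, fixed with 1% formaldehyde and coupled to 10 µM biotin azide, and NIH3T3 cells had been synchronised by thymidine (2 mM, 15 h) and then given fresh medium (2.5 h). In each of the 2 cell types there were 5 groups of 2 libraries, which were a control without the click reaction, a click pulldown without hydroxyurea, and 3 more whose titles read HU, chase and protease. The latter carried the treatment label hydroxyurea (4 mM for 4 h), a drug that stalls replication forks. The 20 libraries have no values in the table of loci, so no level, library depth or difference between groups is given, and each value below is a property of the gene models.

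Sequence was read for the loci whose exon matched a GENCODE M21 transcript (GRCm38) exactly in length and in distance to at least 1 other matched exon within 100 kb. Of the 240 chained loci, 47 matched. Sequence for each locus was at hand in only 9 of the 75 chains, which are not taken to stand for the others. The 4 loci below make up the chain at chr3:103939708-103960171 on the minus strand (mm9), which lies in an intron of Magi3, a scaffold protein of cell junctions. They are given as the last 60 bases of each transcript, 5′ to 3′ and from the 5′-most locus to the 3′-most, with each copy of the polyadenylation hexamers AATAAA and ATTAAA in the last 50 bases in capitals, where copies may overlap.
NONMMUG027520 (C030032O16Rik): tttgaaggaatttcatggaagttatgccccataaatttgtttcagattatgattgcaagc
NONMMUG027519 (Gm43258): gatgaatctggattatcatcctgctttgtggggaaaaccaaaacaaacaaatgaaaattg
NONMMUG027518 (Gm42701): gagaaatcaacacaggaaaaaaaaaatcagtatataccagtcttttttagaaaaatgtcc
NONMMUG027517 (Gm42702): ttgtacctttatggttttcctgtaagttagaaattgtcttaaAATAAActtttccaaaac
Only the 3′-most and longest locus of the Magi3 chain, NONMMUG027517 with 4217 nt, ended with a hexamer, whose first base lay 18 bases from the 3′ end.

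The chain at chr5:14596864-14614544 on the plus strand lies in an intron of Pclo, which encodes a large protein of the presynaptic active zone. Its 4 loci, again from 5′ to 3′, are shown to set against those of Magi3, since both chains have 4 loci in a long intron of a same-strand gene.
NONMMUG031785 (Gm42447): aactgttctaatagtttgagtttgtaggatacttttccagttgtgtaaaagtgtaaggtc
NONMMUG031786 (Gm42448): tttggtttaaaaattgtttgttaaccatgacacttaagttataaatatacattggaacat
NONMMUG031787 (Gm42444): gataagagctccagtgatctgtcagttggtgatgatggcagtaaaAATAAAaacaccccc
NONMMUG031788 (Gm42445): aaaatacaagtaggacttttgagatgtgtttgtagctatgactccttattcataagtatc
In Pclo the third locus, NONMMUG031787, was the longest at 4558 nt and the only one of the 4 with a hexamer, 15 bases from its end.

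The chain at chr6:45991950-46001394 on the plus strand lies in an intron of Cntnap2, a neuronal adhesion protein of the neurexin family and among the longest genes of the genome. Its 3 loci are shown because the chain also had the spliced locus nearest upstream of any chain.
NONMMUG035204 (Gm43871): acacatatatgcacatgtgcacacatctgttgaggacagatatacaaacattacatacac
NONMMUG035205 (Gm43873): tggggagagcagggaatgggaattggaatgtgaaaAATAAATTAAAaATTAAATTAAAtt
NONMMUG035206 (Gm43877): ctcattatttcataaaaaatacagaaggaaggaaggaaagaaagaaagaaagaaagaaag
The middle locus held 4 hexamers in an AT-rich end, 1 AATAAA that began 25 bases from the 3′ end and 3 copies of ATTAAA after it, and the next locus began after a gap of 77 bases. The third locus ended in a purine repeat and had no hexamer. Among all 9 chains with each locus matched, 3 had no locus with a hexamer, those in the Ugt1a cluster, in Ap3s1 and opposite Myo3a. In 4 chains 1 locus had one and in 2 chains 2 loci did, so the introns shown do not stand for a rule.

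Chains were short. There were 60 chains of 3 loci and 15 of 4, and none was longer. The plus strand had 32 chains and the minus strand 43. Every chromosome from 1 to 19 had at least 1 chain, with the most on chromosome 2 (10 chains, 32 loci) and 1 each on chromosomes 12 and 15. As a share of single-exon loci, chained loci ranged from 0.570% on chromosome 15 to 2.49% on chromosome 14. In 66 chains the locus identifiers ran on without a break. The other 9 chains skipped 10 identifiers in all, of which 6 are absent from the catalogue and 4 belong to loci on the opposite strand.

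The extent of a chain, from its first to its last base, had a median of 12650 bases (quartiles 9759 and 15182) and ran from 1960 to 20464. Chains of 3 had a median extent of 11833.5 bases and chains of 4 of 17443 bases. Together the chains covered 908376 bases, of which 525689 lay in loci. In the median chain 58.2% of the extent lay in loci, with a range from 24.7% to 94.9%. Chained loci had a median length of 1970 nt (quartiles 1176 and 2917, range 214 to 6021). The median was 2094 nt in pairs and 1748 nt for loci with no such neighbour, so the quartile ranges of all 3 kinds overlapped.

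The median length of loci was largest for the 3′-most locus of a chain, a difference that was not tested. The 5′-most locus had a median of 1955 nt, inner loci 1891 nt and the 3′-most locus 2248 nt. The longest locus was the 5′-most in 20 chains, an inner one in 25 and the 3′-most in 30. In 28 of the 75 chains the 5′-most locus was longer than the 3′-most. More than 1 transcript was modelled in 18 chained loci (7.50%), against 8.90% in pairs and 5.06% among the rest, and no chained locus had more than 3. The 3 longest chained loci were NONMMUG021909 on chromosome 2 with 6021 nt, NONMMUG026656 on chromosome 3 with 5937 nt and NONMMUG022910 on chromosome 2 with 5779 nt.

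**Figure D1:**
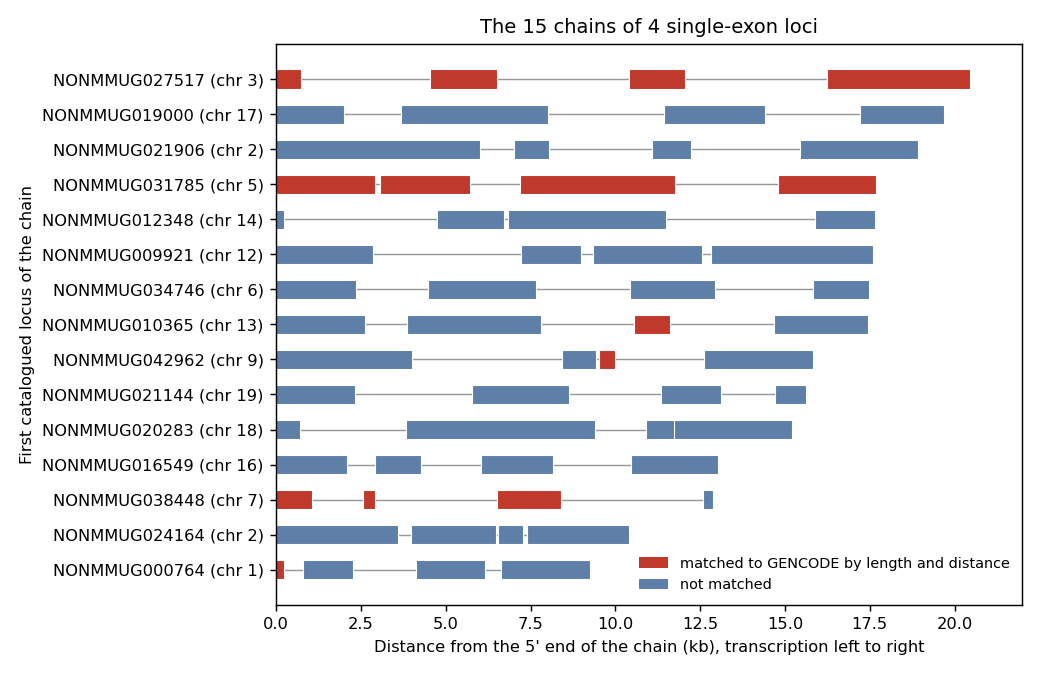
Maps of the 15 chains of 4 loci, drawn 5′ to 3′ with distance from the 5′ end of the chain in kb on the horizontal axis and 1 chain per line, ordered by extent. Boxes are loci, lines are gaps, and red boxes are loci matched to GENCODE. Extents run from 9258 to 20464 bases, and the chains on chromosome 3 (Magi3) and chromosome 5 (Pclo) are the ones with all 4 loci matched.

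The 5 chains with most loci, ties going to the larger extent, were led by the Magi3 chain with 20464 bases. Its gaps were 3827, 3900 and 4197 bases from 5′ to 3′, so they were nearly even. On chromosome 17 the chain from NONMMUG019000 (81985819 to 82005496, minus strand) spanned 19678 bases, with gaps of 1694, 3429 and 2810 bases. On chromosome 2 the chain from NONMMUG021906 (6830863 to 6849768, minus strand) spanned 18906 bases and began with the longest chained locus of all. The Pclo chain spanned 17681 bases, and its gaps widened from 152 to 1486 to 3045 bases. On chromosome 14 the chain from NONMMUG012348 (22082846 to 22100483, plus strand) spanned 17638 bases, and 2 long inner loci of 1957 and 4672 nt stood 131 bases apart between outer gaps of 4507 and 4377 bases.

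The rule sets the upper bound of the gaps, so they are given as a description. The 165 gaps had a median of 2312 bases (quartiles 1108 and 3334) and ran from 18 to 4988. Gaps in pairs had nearly the same median, 2303 bases. At most 1000 bases separated the loci in 37 gaps (22.4%, against 23.7% in pairs) and at most 100 bases in 5 gaps (3.03%, against 3.20%). The smallest gap, 18 bases, lay between NONMMUG020283 and NONMMUG020284 on chromosome 18. Just inside the limit were gaps of 4977, 4978 and 4988 bases, and the closest neighbours left out stood 5158, 5425 and 5532 bases from a chain.

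**Figure D2:**
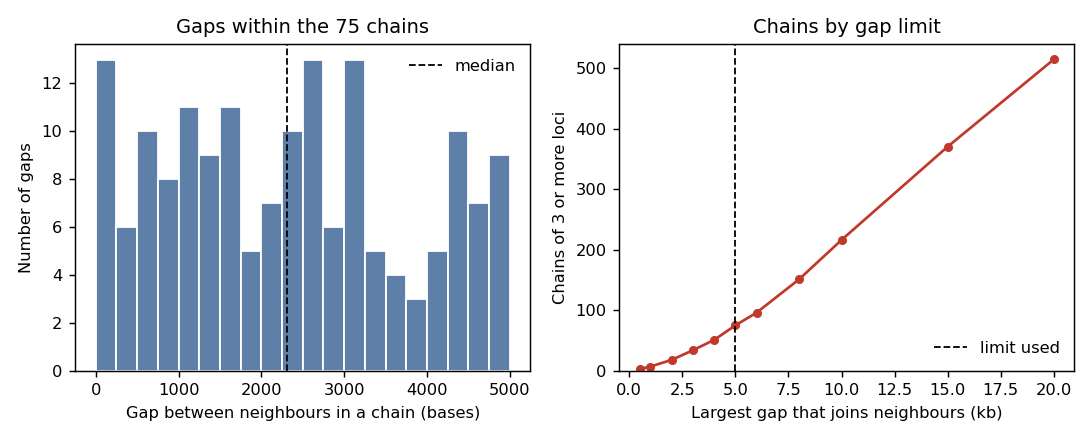
Left, number of gaps within chains by size in bases, with the median of 2312 as a dashed line. Right, number of chains of 3 or more loci (vertical axis) when the largest gap that joins neighbours (horizontal axis, kb) is changed, with the limit of 5 kb dashed. The gaps spread over the whole allowed range and the number of chains grows steadily with the limit, from 7 at 1 kb to 514 at 20 kb.

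The count of chains had no step at any gap size tried. A limit of 1000 bases gave 7 chains, 2000 gave 18, 10000 gave 216 and 20000 gave 514. The longest run had 4 loci at each limit up to 5000 bases, 6 at 10000 and 8 at 20000.

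Chains also lay near one another in places. Another chain of the same strand lay within 100 kb for 6 chains and within 1 Mb for 12. The closest pairs were 24.6 kb apart on chromosome 18, 26.7 kb on chromosome 10 and 61.2 kb on chromosome 16. Loci on the opposite strand overlapped 7 chains. Exon bases were shared with the opposite strand by 7 chained loci (2.92%), close to the 3.14% of loci in pairs and the 2.84% of the rest.

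Ordered by the largest gap in a chain, the first was the chain on chromosome 2 from NONMMUG022191 (22442811 to 22446053, minus strand), with gaps of 376 and 140 bases in an extent of 3243. The next was the chain of 4 from NONMMUG024164 on chromosome 2 (112223982 to 112234389, plus strand), whose gaps were 387, 55 and 94 bases. The chain of 3 from NONMMUG030501 on chromosome 4 (121052399 to 121054358, plus strand) followed with 560 and 506 bases and had the smallest extent of all chains, 1960 bases, of which 45.6% lay in loci.

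The first of these, from NONMMUG022191, is a row of copies of mitochondrial genes in nuclear DNA. GENCODE lists its loci as the unprocessed pseudogenes Gm13339, Gm13340 and Gm13341, inside the span of Myo3a but on the opposite strand. From 5′ to 3′ their transcripts aligned over their whole length to mt-Nd2 (96.7% identity), mt-Co1 (97.6%) and mt-Co2 (95.9%), genes of a subunit of respiratory complex I and of the cytochrome oxidase. The loci were 510, 1545 and 672 nt long and the mitochondrial genes 1038, 1545 and 684 nt. The order, the strand and both spacings were those of the mitochondrial genome, where 376 and 140 bases also separate the 3 genes. Gm13340 and mt-Co1 differ at 37 of 1545 bases with no gap. Their first 60 bases are shown with the differing bases in capitals.
NONMMUG022192 (Gm13340): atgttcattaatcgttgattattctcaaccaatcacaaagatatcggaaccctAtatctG
mt-Co1: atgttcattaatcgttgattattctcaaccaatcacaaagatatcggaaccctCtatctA

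The small chain on chromosome 4 also held repeated copies. Its loci matched the processed pseudogenes Gm12889, Gm12885 and Gm12884, of 241, 328 and 325 nt. All 3 aligned best to Tmem184c, a gene for a membrane protein, over 73.9%, 99.7% and 99.7% of their length with 83.2%, 77.8% and 77.6% identity. On chromosome 1 the chain from NONMMUG001292 (90042951 to 90051146, plus strand) held 3 unprocessed pseudogenes, Gm15369, Gm15374 and Gm15371, inside the Ugt1a cluster, whose genes encode liver enzymes that couple bilirubin and drugs to glucuronic acid. Gm15374 aligned over its whole length to Ugt1a7c with 82.9% identity and Gm15371 over 99.5% to Ugt1a8 with 72.3%. In all, 11 of the 47 matched loci aligned over at least 80% of their length to a protein-coding or mitochondrial transcript. Others among them were copies of the splicing gene Snrpe (98.9% identity) and of the translocon gene Sec61g (97.8%).

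Spliced loci of the catalogue were not used by the rule. There were 12960 of them on chromosomes 1 to 19, and few stood close to a chain. A spliced locus of the same strand contained 1 chain (1.33%, exact 95% interval 0.0338 to 7.21%), against 3.46% of pairs and 2.82% of loci alone. Any overlap with a spliced locus was seen for 3 chains (4.00%), against 4.10% of pairs and 2.82% of loci alone. Within 5000 bases, 2 chains (2.67%, interval 0.325 to 9.30%) had a spliced locus upstream and 2 had one downstream, so the difference was 0. Pairs had 2.31% upstream and 1.66% downstream, and loci alone 2.03% and 1.90%. With 75 chains these shares differed by less than the width of their intervals.

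At larger distances the counts on the 2 sides were also close. A spliced locus lay within 50 kb upstream of 15 chains and downstream of 14, and within 100 kb of 25 and 20. The nearest same-strand spliced locus on either side was at a median of 95.8 kb from a chain (quartiles 37.4 and 242.3), 126 kb from a pair and 131.7 kb from a locus alone. Within 100 kb there was one for 52.0% of chains, 43.0% of pairs and 42.1% of loci alone. These shares have no test here, since neighbouring loci share their surroundings.

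**Figure D3:**
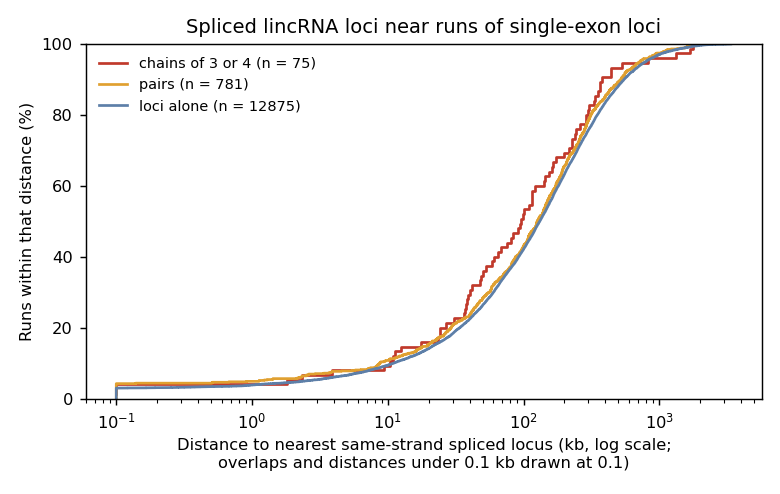
Cumulative share (%) of chains, pairs and loci alone by distance to the nearest spliced locus of the same strand, on a log axis in kb, with overlaps and distances under 0.1 kb drawn at 0.1. At 10 kb the 3 curves lie at 9.33%, 10.8% and 9.40%, and the curve of chains lies above the others around 100 kb, at 52.0% against 43.0% and 42.1%.

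The chain inside a spliced locus was the one from NONMMUG038448 on chromosome 7 (86655248 to 86668111, plus strand). It has 4 loci of 1039, 337, 1880 and 295 nt, with gaps of 1523, 3621 and 4169 bases. The spliced locus, NONMMUG038446 (86644912 to 86679289), has 13 transcripts, and 10 of its exons matched Mir9-3hg, the host transcript of the neural microRNA miR-9. No chained locus shared exon bases with it, and 3 of its 21 exons lay together in 1 gap of the chain. The first 3 loci matched A330074H02Rik, 2900037B21Rik and Gm37608, which lay outside protein-coding genes.

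In the other two overlapped chains the spliced locus reached over one end. On chromosome 3 the span of NONMMUG027757 (118133215 to 118232940, plus strand), with 16 exons matched to Gm26871, took in the first locus of the chain from NONMMUG027761 (118229069 to 118243449). This chain of 3 loci of 2120, 4131 and 3511 nt matched Gm37773, Gm37928 and Gm32444. Its nearest protein-coding gene in GENCODE was Dpyd, the first enzyme of pyrimidine breakdown, whose start lay 21.6 kb downstream on the same strand. The second and the third locus each had AATAAA near the end, 20 and 19 bases from it, and the second also had ATTAAA 30 bases from it. On chromosome 9 the span of NONMMUG042578 (43524944 to 43545050, minus strand) reached over the 3′-most locus of the chain from NONMMUG042579 (43542197 to 43554083). Exons of NONMMUG042578 matched Gm30015, and so did NONMMUG042582, the 5′-most locus of the chain. One GENCODE gene thus joins a spliced locus and a chained locus that the catalogue lists apart. In all 3 overlapped chains an exon of the spliced locus lay in a gap of the chain.

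Chains with a spliced locus just outside them were few in number. Upstream, NONMMUG035203 ended 3852 bases before the Cntnap2 chain, and NONMMUG027760 ended 3892 bases before the chain near Dpyd. The next, NONMMUG042583, stood 8676 bases before the chromosome 9 chain. Downstream, NONMMUG014796, matched to Gm46519, began 1820 bases after the chain from NONMMUG014797 on chromosome 15 (75468161 to 75483321, minus strand). NONMMUG013211 began 2322 bases after the chain from NONMMUG013207 on chromosome 14 (65193196 to 65203801, plus strand) and matched Mir124a-1hg, the host transcript of the brain microRNA miR-124. The third, NONMMUG023137, began 10844 bases after the chain from NONMMUG023138 on chromosome 2 (60737410 to 60748049, minus strand), and its 2 exons matched the RNA-binding protein gene Rbms1.

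The well-known lncRNAs that could be matched were not among these neighbours. Of 25 names looked for, such as Meg3, H19, Neat1, Malat1, Gas5 and Snhg1, 18 had a matched spliced locus. No chain of the same strand lay inside one or within 5000 bases of one. Among chains of the same strand the nearest was 1701494 bases from Neat1, the scaffold of paraspeckles, and some of these lncRNAs, such as Meg3 and Snhg1, had no chain on their chromosome and strand. The other names, Airn among them, had no matched spliced locus. Whether a chain lies in or near those is not known from this search.

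Matching to GENCODE placed part of the chains relative to protein-coding genes. A locus was matched in 19.6% of chained loci (47 of 240), 14.0% of loci in pairs (219 of 1562) and 15.6% of loci alone (2011 of 12875). The order of these shares turned with the window for the second exon. A window of 10 kb gave 14.6%, 9.99% and 2.83%, and 1 Mb gave 20.4%, 16.6% and 24.99%, so that loci alone were then matched most often. With the strand of the catalogue swapped, 2 chained loci matched. The 47 matched loci came from 22 chains. In 9 of them all loci matched and in 13 some did, while 53 chains had no matched locus. A match needs a second matched exon within the window. Members of a chain have one another within a few kb, while loci alone need an exon from farther away. The shares of the 3 kinds are therefore not on an equal footing.

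Of the 47 matched members, 29 (61.7%, exact 95% interval 46.4 to 75.5%) were in an intron of a same-strand protein-coding gene, 2 overlapped an exon of one, 4 lay within a gene of the opposite strand and 12 were outside protein-coding genes. The share in such introns was 58.9% in pairs and 33.1% for loci alone. Counted by chain, 13 of the 22 had such a locus. By GENCODE class 27 of the matched members were TEC, a class for unspliced transcribed regions. Another 13 were pseudogenes, 4 were sense-intronic, and 1 each was a snoRNA, a processed transcript and a protein-coding transcript. Pseudogenes made up 27.7% of matched members and 42.3% of matched loci alone. With pseudogenes and small RNAs left out, the intron shares were 68.8% in chains, 76.6% in pairs and 56.2% for loci alone, and the intervals of chains (50.0 to 83.9%) and of loci alone (53.1 to 59.4%) overlapped. With a window of 10 kb and the same genes left out, chains had 73.1% (52.2 to 88.4%). Pairs had 78.1% and loci alone 36.4% (29.0 to 44.3%). The intervals of chains and loci alone did not overlap, but they count members of a chain as independent. At this window the chained loci came from 9 chains, 6 of which (66.7%) had a locus in such an intron. No difference between the kinds is read from these intervals. With 1 Mb the shares were 69.7%, 74.7% and 54.0%.

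**Figure D4:**
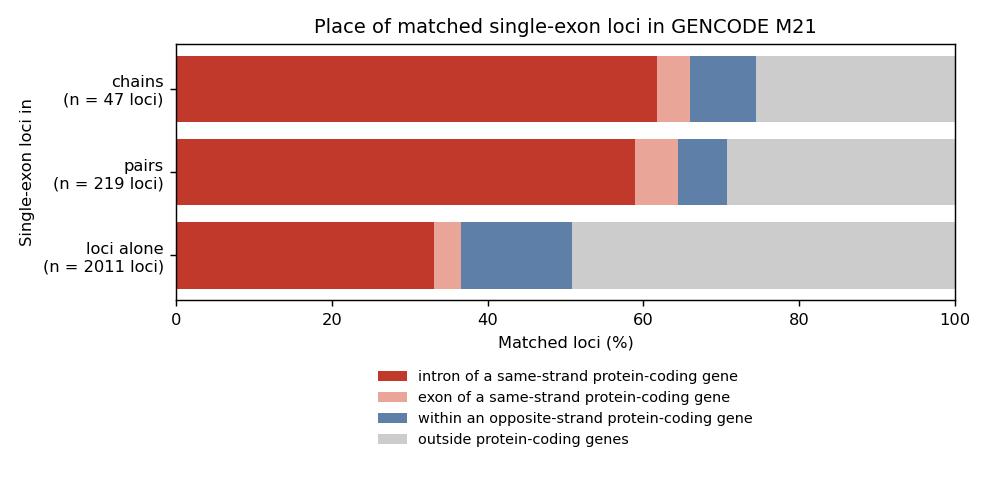
Share (%) of matched loci in each place relative to GENCODE protein-coding genes, as stacked bars for chains (47 loci), pairs (219) and loci alone (2011). The red segment, introns of same-strand genes, takes 61.7%, 58.9% and 33.1%, and the grey segment, outside protein-coding genes, takes 25.5%, 29.2% and 49.2%.

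Beside the Ugt1a chain, the chains with each locus matched in 1 intron were those of Adgrb3, Magi3, Pclo, Cntnap2 and Ap3s1. The Adgrb3 chain on chromosome 1 (25854126 to 25866817, minus strand) has loci of 1017, 3310 and 3625 nt from 5′ to 3′ in an intron of 266.1 kb, and Adgrb3 is an adhesion receptor of the brain. It begins 16.0 kb after the exon before it and ends 237.4 kb before the next. The Cntnap2 chain lies in an intron of 154.7 kb, with 26.5 kb before it and 118.8 kb after. The Pclo chain lies near the middle of an intron of 128.2 kb, 56.1 kb after one exon and 54.4 kb before the next. The Magi3 chain lies in an intron of 113.8 kb, 63.4 kb after one exon and 29.9 kb before the next. The chain in Ap3s1 on chromosome 18, a subunit of an adaptor complex of vesicle transport, lies in a shorter intron of 21.1 kb and begins 0.442 kb after the exon before it. These distances show that a chain can stand far from both exons of its intron or close behind one.

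In other chains only some of the loci matched. In Tshz3, a zinc finger transcription factor gene, 2 of 3 loci matched in an intron of 66.5 kb, with 19.7 kb before them. These were the outer loci, at the same distance in both annotations, so the locus between them lies in that intron too. In Gstcd, 2 of 3 loci matched in an intron of 56.9 kb. Single loci matched in introns of Cdk13, a kinase of transcription elongation, of the ubiquitin ligase gene Arih1, of Rnf24 and of Raph1. The matched loci in Arih1, Rnf24 and Raph1 were processed pseudogenes. In Cdk13 the exon before lay 1.862 kb from the matched locus, less than the gap of 2731 bases to the next chained locus upstream. In Raph1 the next exon lay 0.547 kb after the matched locus, and the next chained locus followed after 547 bases. The chains in Cdk13 and Raph1 are therefore not shown to lie in 1 intron. In Slc25a3, the mitochondrial phosphate carrier, the matched locus was a snoRNA of 246 nt in an intron of 0.482 kb. In Ppp1cb and in Tmcc1 the matched locus overlapped an exon of the gene, and the interval between matched exons around either chain lay wholly within that gene.

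For the 53 chains with no match, the matched exons on either side gave an interval. These intervals had a median of 912.3 kb (51.5 to 4073.7), and 46 of them had the same length in both annotations. In 7 intervals the only protein-coding gene was a single one on the strand of the chain. These genes were Celf2 (chain from NONMMUG021906), Rbms1 (NONMMUG023138), Ptprd (NONMMUG029603), Galntl6 (NONMMUG040656), Rbms3 (NONMMUG044149), Arl15 (NONMMUG012022) and Nrg3 (NONMMUG012682). In these, order alone cannot tell whether a chain lies inside the gene or beside it. All of these intervals but that of Celf2, with a difference of -581 bases, had the same length in both annotations. Positions within the intervals were not compared with the genes here, so the question is not answered. At least 1 same-strand protein-coding gene was present in 51 of the 53 intervals, only opposite-strand genes in 1 and none in 1. No interval of these 53 chains lay wholly within a protein-coding gene.

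The 3′ ends of matched members were searched for AATAAA and ATTAAA, the hexamers bound by the cleavage and polyadenylation machinery, in the last 50 bases on the strand of the transcript. One was found in 15 of 47 loci (31.9%, interval 19.1 to 47.1%), against 15.1% in pairs and 18.2% of loci alone. The 47 loci came from 22 chains and members of a chain are not independent. The interval therefore covers counting only, and the difference was not tested. With pseudogenes left out the shares with a hexamer were 38.2% (13 of 34, interval 22.2 to 56.4%), 18.8% and 29.4%, and the same limit holds. At least 10 of the last 20 bases were A in 38.2% of these 34 loci, against 18.8% in pairs and 19.4% of loci alone. The reverse complements TTTATT and TTTAAT were found in 2 of those 34 loci (5.88%), against 11.5% and 7.76%. Matched members had a median GC content of 38.4%, against 41.6% in pairs and 44.4% of loci alone, with a range from 29.8% in Gm37773 to 58.6% in NONMMUG042582. AT-rich sequence holds these hexamers more often by its composition, and the part of GC content in the shares was not tested. Matched loci also differed in GENCODE class, with TEC at 57.45% in chains, 60.27% in pairs and 43.26% for loci alone. The part of class in the hexamer shares was not tested either. A hexamer here is a match of letters and no measured end.

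Parts of several matched members aligned to transcripts of other genes. Over 6.24% of the length of NONMMUG027517 in Magi3 the best alignment was to Vmn1r183 in reverse orientation, with 94.8% identity, and 62.9% of NONMMUG031788 in Pclo aligned to Olfr639 with 92.1%. In Ap3s1, 64.1% of NONMMUG019870 aligned to Vmn2r53 with 90.3% identity. NONMMUG027519 in Magi3 also aligned best to Olfr639, in reverse orientation, over 13.6% of its length with 92.3% identity. Vmn1r183 and Vmn2r53 encode pheromone receptors and Olfr639 an odorant receptor. Which part of those transcripts was aligned was not examined, so the names do not show receptor coding sequence in these loci. Reads from such stretches could be assigned to more than 1 place, and no source used here says how the authors treated them.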

How the data were processed

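The authors deposited 1 table of exon models for the whole series of 20 libraries, with positions, strand and NONCODE identifiers. Its score field is empty, so these positions (unit: other) carry no count, and read depth is unknown. The models are not taken here as assembled from these libraries. The submitters' processing notes name mm9, TopHat2 2.0.8 and Cufflinks 2.1.1, and the source field of the file names Cufflinks. The filters on models and the use of strand are not given in any source used here.

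The members and lists were chosen with earlier results of these data known. Loci were taken as deposited. Positions are 1-based mm9 positions. Loci on X, Y, the mitochondrial genome and unplaced sequence were left out. Chains were named by most loci (5), largest extent, smallest largest gap, containment, nearest spliced locus on either side (3 each) and known lncRNAs. Further names were picked with their values in view. Planned comparisons between libraries could not be fitted.

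GENCODE M21 is on GRCm38, so no coordinates were converted. Exons were matched by exact length and exact distance to another exon within 100 kb, a method chosen after seeing the data. Of 65182 exons 17387 matched, of which 17063 (98.1%) kept one order along the chromosome and were used, and 385 matched with strands swapped. Distances to GENCODE genes are within GRCm38. Likeness was measured with blastn 2.17.0. The best alignments of some matched loci are not reported here. Shares have exact Clopper-Pearson 95% intervals, and members of a chain are not independent. The procedures were tested on simulated data. Python 3.11.15, numpy 2.4.6, scipy 1.17.1 and matplotlib 3.10.9 were used.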

Additional observations from a re-analysis of the deposited data

How the results depend on the processing

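The number of chains followed the gap limit. Limits of 1000, 2000 and 10000 bases and a minimum of 4 loci gave, in that order, 7, 18, 216 and 15 chains, 22, 56, 716 and 60 loci, shares of 0.150, 0.382, 4.88 and 0.409% of single-exon loci, and median extents of 3799, 9351.5, 18129 and 17443 bases. The 3 limits gave median gaps of 376, 775.5 and 4438.5 bases. With at least 4 loci the median chain had 4 loci, and a minimum of 5 left no chain and so no value. Breaking chains at exons of same-strand spliced loci (72 chains), ignoring introns under 30 bases (83), keeping loci of at least 500 bases (67) and adding X (79) kept the count within 1.5 times of 75. The share of contained chains was 0% with limits of 1000 and 2000 bases, with chains broken at exons and with loci of at least 500 bases. The upstream share was 0% with a limit of 1000 bases, a minimum of 4 loci or a window of 1000 bases, and 20% with a window of 50000 bases. The downstream share was 0% with limits of 1000 and 2000 bases, a minimum of 4 loci or a window of 1000 bases, and 18.7% with 50000 bases. Their difference stayed within its interval, from -1.39 to 5.56 percentage points. Of 95 recomputed values 61 stayed within the interval or factor of the reported value. Among settings chosen after seeing the data, a matching window of 10 kb gave 14.6% of chained loci matched and 62.9% of these in same-strand introns, and 1 Mb gave 20.4% and 63.3%. Loci alone moved more, from 15.6% matched to 2.83% and 24.99%, which turned their order with chains. The chains rest on 1 catalogue with no read depth. Its loci carry NONCODE identifiers and are not taken here as assembled from these 20 libraries. A gap therefore cannot be told apart from a stretch that the evidence behind the models did not cover. No paired analysis was possible because the replicate numbers in the labels belong to libraries with no values in the table.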

Other observations

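Close neighbours were mostly on 1 strand. Among single-exon loci that follow one another along a chromosome within 5000 bases, whatever their strand, 931 pairs of neighbours lay on the same strand and 211 on opposite strands, which is 81.5% on the same strand. Among neighbours of 1 strand, 946 of 14639 (6.46%) stood within 5000 bases of each other. Both counts are over all single-exon loci, of which those in chains are a part, and have no test.

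The interval around the chain from NONMMUG017487 on chromosome 17 held Airn, the imprinted antisense lncRNA, and that around the chain from NONMMUG013797 on chromosome 14 held Mir17hg, the host of the miR-17 cluster, each on the strand of the chain. The spliced locus matched to Mir17hg, NONMMUG013779, lay 2281581 bases from the chain from NONMMUG013797, so that chain lies outside it. Airn had no matched spliced locus, and gene order alone did not place the chain from NONMMUG017487 inside or outside it.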
